A study of Mus musculus with 8 samples.

Results

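The BCL2 family controls whether a cell commits to death through its mitochondria. Survival proteins such as BCL2, BCL-XL and MCL1 hold the pore-forming effectors BAX and BAK1 in check, and BH3-only proteins release that hold when they are made or activated. In T cells the balance is set partly by cytokines and antigen receptor signals: interleukin 7 is known to sustain BCL2 in resting cells, and the BH3-only protein BIM is known to limit activated T cells.

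The 10 genes described here were taken by symbol: Bcl2, Bcl2l1 and Mcl1 for survival, Bcl2l11, Bmf, Bbc3, Pmaip1 and Bid among the BH3-only genes, and the effectors Bax and Bak1. All 10 were present among the 14042 gene symbols of the deposited tables. RNA sequencing of mouse cells gave 8 libraries, 2 for each of 4 groups. TFH KO libraries came from donor CD4 cells with surface CXCR5 and high PD1, by which T follicular helper (TFH) cells are sorted, out of spleens of (bxd)F1 mice on day 7 after transfer of CD8-depleted spleen cells of C5aR1-/- donors. TFH WT libraries were made in the same way with WT donors. Naive KO and naive WT libraries came from sorted CD62L high, CD44 low CD4 T cells of C5aR1-/- and WT mice that were run beside them. Parental T cells transferred to F1 mice can cause graft-versus-host disease, and C5aR1 is a receptor for the complement fragment C5a. TFH and naive cells thus differed in transfer, host and time as well as in cell state, and these cannot be told apart. The sources used here give neither donor strain, age nor animal of origin for the libraries, so p-values measure the spread between these libraries, which may be technical.

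Levels below are the authors' deposited log2 values and differences are log2 differences between group means. A call is an adjusted p below 0.05 from the linear model of limma over all 14042 genes, with Benjamini-Hochberg adjustment. The depth of the libraries is unknown.

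The labels matched the transcripts in part. Il21, a cytokine gene that marks TFH cells, was higher in TFH than in naive libraries by 2.41 ± 0.17 (SE), but Cxcr5, a sort marker, differed by -0.80 ± 0.24 and was called lower. Pdcd1, the gene of the other sort marker PD1, differed by 0.97 ± 0.36 in the direction of the label and was not called (adjusted p = 0.108, limma). Cd44, the marker sorted as low in naive cells, also differed by -0.69 ± 0.10, so groups are named by their labels. Of 10 TFH markers 5 were called higher and 1 lower, and of 8 naive markers 1 was called higher and 3 lower. Of 11 T cell identity genes 1 was called higher and 2 lower, and they summed to a similar level everywhere, with a log2 of the summed linear values of 18.10 to 18.19 in TFH KO, 18.17 to 18.25 in TFH WT, 18.21 to 18.27 in naive KO and 18.24 to 18.28 in naive WT libraries. Marker genes of other cells varied more. The 15 myeloid markers summed to 11.91 to 13.34 in TFH KO and 11.59 to 12.92 in TFH WT, against 14.01 to 14.20 in naive KO and 14.05 to 15.64 in naive WT libraries, and 5 of the 15 were called lower in TFH libraries. The 12 CD8 T and NK cell markers summed to 12.76 to 13.32 in TFH KO and 12.48 to 12.84 in TFH WT, against 13.68 to 13.89 in naive KO and 13.87 to 14.02 in naive WT libraries, with 6 of 12 called lower. None of the 15 B cell markers was called, but their sum differed between libraries of one group, at 11.57 in replicate 1 and 15.42 in replicate 2 of TFH KO, 11.96 in replicate 1 and 13.95 in replicate 2 of TFH WT, 13.14 to 13.98 in naive KO and 12.61 to 13.43 in naive WT. No marker was listed at 0, and the lowest value was 2.73, for Fpr1. Of 16 immediate early and stress genes, which respond within minutes to stimulation and handling, 12 were called higher in TFH libraries and none lower. Their sum was 18.54 to 18.57 in TFH KO and 18.45 to 18.48 in TFH WT, against 16.39 to 16.59 in naive KO and 16.28 to 16.76 in naive WT libraries. Hspa1a and Hspa1b of this list split by genotype, although none of the 16 genes was called between KO and WT. For Hspa1a, KO minus WT was -3.697 ± 1.418 in TFH and -7.201 ± 1.418 in naive libraries. For Hspa1b it was -3.87 ± 1.38 in TFH and -6.53 ± 1.38 in naive libraries. The naive WT replicates of both genes lay far apart. The median KO minus WT difference of the list was 0.05 in both labels.

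Promoter sequence was examined for members that moved in opposite directions between TFH and naive libraries. The windows run from 250 bases before to 50 bases after a RefSeq transcript start on GRCm38.p6, the build that mm10 names. Such a window was used for 9 of the 10 members, and none was searched for Pmaip1. Bcl2l1, Bmf and Bbc3 had 3 windows each and Bcl2l11 had 2. Only the window nearest the GENCODE gene start was searched for each gene, so motifs in other windows would be missed. Mcl1 and Bbc3, shown as genes with higher values in TFH libraries, lie at chr3:95658471-95658770 and chr7:16309333-16309632, both on the plus strand. Bcl2l11 and Bmf, shown as genes with lower values, lie at chr2:128125788-128126087 on the plus strand and chr2:118549637-118549936 on the minus strand. Letters in capitals mark motif matches.
Mcl1: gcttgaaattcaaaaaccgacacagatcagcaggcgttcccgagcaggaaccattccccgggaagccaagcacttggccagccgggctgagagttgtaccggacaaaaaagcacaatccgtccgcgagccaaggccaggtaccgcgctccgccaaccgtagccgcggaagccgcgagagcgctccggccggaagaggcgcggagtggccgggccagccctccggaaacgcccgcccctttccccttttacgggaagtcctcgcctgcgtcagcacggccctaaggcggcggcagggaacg
Bbc3: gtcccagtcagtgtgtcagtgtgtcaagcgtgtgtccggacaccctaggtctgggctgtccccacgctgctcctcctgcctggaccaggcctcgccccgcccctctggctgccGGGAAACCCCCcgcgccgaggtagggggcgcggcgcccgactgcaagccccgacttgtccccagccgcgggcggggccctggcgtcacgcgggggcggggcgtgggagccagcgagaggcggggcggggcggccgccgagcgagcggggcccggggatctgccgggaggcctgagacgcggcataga
Bcl2l11: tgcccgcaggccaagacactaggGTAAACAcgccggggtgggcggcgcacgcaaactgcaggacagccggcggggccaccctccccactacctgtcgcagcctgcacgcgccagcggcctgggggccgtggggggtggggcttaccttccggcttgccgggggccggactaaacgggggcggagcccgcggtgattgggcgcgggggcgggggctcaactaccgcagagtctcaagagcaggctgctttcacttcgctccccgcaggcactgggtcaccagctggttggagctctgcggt
Bmf: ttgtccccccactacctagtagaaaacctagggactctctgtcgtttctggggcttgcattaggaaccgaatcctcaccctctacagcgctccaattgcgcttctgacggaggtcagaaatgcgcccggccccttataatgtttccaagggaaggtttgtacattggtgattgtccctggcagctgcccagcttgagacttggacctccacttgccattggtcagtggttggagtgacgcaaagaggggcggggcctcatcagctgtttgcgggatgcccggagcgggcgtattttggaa

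Both strands were searched for 6 motifs. These were the AP-1 site TGANTCA, the cyclic AMP response element TGACGTCA, the FOXO site TGTTTAC, the E-box CACGTG, the STAT site TTCNNNGAA and the NF-kB site. The Bcl2l11 window held 1 FOXO match, on the minus strand and starting 227 bases upstream of the transcript start. FOXO sites were present in 3.65% of all 32851 windows of 300 bases. The Bbc3 window held a pair of overlapping NF-kB matches, starting 137 and 136 bases upstream, and 8.46% of windows held such a match. This RefSeq start of Bbc3 lies 1190 bases from the GENCODE gene start. The Mcl1 and Bmf windows held none of the 6 motifs, nor did those of Bcl2, Bcl2l1, Bak1 and Bid, and the Bax window held 2 E-boxes, which 7.15% of windows held. AP-1, cyclic AMP response and STAT sites, present in 7.81%, 1.79% and 8.3% of windows, were in none of the 9 member windows. A match is a string of letters and not a measured binding site.

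In TFH against naive libraries the family moved in both directions. Over both genotypes, with 4 libraries a side, Pmaip1, Bcl2, Mcl1 and Bbc3 rose, Bmf and Bcl2l11 fell, and Bcl2l1, Bid, Bax and Bak1 were not called. Thus 4 of the 10 members rose, where 18.3% of all genes did, and 2 fell, where 19.8% of all genes did. In either direction 6 of 10 were called, against 38.1% of all genes. The median difference of the members was 0.16, against 0.00 over all genes, and the median size of their difference without regard to sign was 0.52, against 0.23. In bulk libraries a change in the share of cells of a type and a change in RNA per cell cannot be told apart. In 3 of the 10 members all TFH libraries were above all naive libraries, where 18.2% of all genes were, and in 2 they were below, where 20.3% were. That is 5 of 10 with no overlap, against 38.5% of all genes.

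**Figure D1:**
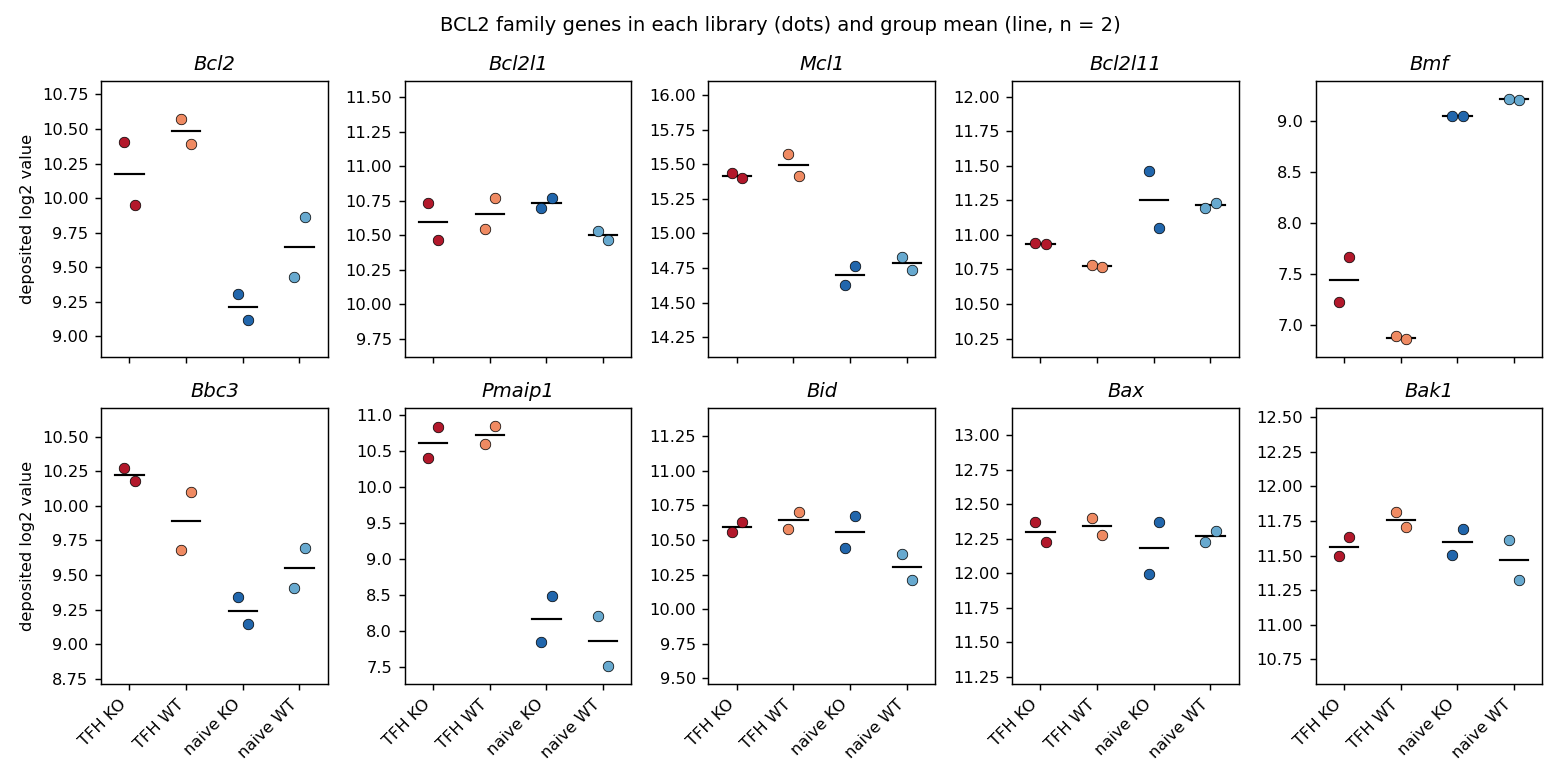
Deposited log2 value (y axis, a separate range for each gene that spans at least 2 units) of each of the 10 genes in the 2 libraries of each group (dots), with the group mean as a line. All 4 TFH libraries lie above all 4 naive libraries for Bcl2, Mcl1 and Pmaip1 and below them for Bmf and Bcl2l11, while the groups overlap for the other genes.

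Among the survival genes, Mcl1 and Bcl2 rose and Bcl2l1 did not pass the test. Mcl1, which encodes a short-lived survival protein that T cells need at most stages of life, was at 15.43 and 15.40 in TFH KO and at 15.58 and 15.42 in TFH WT libraries. It was at 14.63 and 14.76 in naive KO and at 14.83 and 14.74 in naive WT libraries. All 4 TFH libraries were thus higher than all 4 naive libraries, and within each cell label the genotypes lay close together. The difference over both genotypes was 0.72 ± 0.07 (adjusted p = 2.07e-05, limma), a 1.64-fold higher value. It was 0.72 ± 0.10 in KO (adjusted p = 0.000632) and 0.71 ± 0.10 in WT (adjusted p = 0.000518).

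Bcl2, the founding survival gene of the family, was at 10.41 and 9.95 in TFH KO and at 10.57 and 10.39 in TFH WT libraries. It was at 9.31 and 9.12 in naive KO and at 9.43 and 9.86 in naive WT libraries. The groups did not overlap by cell label, although the lower TFH KO library lay only a little above the higher naive WT library. The order of the group means was TFH WT (10.48), TFH KO (10.18), naive WT (9.65) and naive KO (9.21), and neither genotype pair differed beyond its test. Bcl2 rose by 0.90 ± 0.13 over both genotypes (adjusted p = 0.000365, limma), by 0.96 ± 0.19 in KO (adjusted p = 0.00485) and by 0.84 ± 0.19 in WT (adjusted p = 0.00775). In WT the call was lost when naive WT replicate 1 was left out (0.62, adjusted p = 0.0684), and also when TFH WT replicate 1 was (0.75, adjusted p = 0.0599). An antisense gene, D630008O14Rik, overlaps Bcl2 in the annotation, and the strand setting of the counting is not known.

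Bcl2l1, which encodes BCL-XL, lay between 10.47 and 10.77 in the 4 TFH libraries and between 10.47 and 10.77 in the 4 naive libraries. The difference over both genotypes was 0.01 ± 0.09, with a 95% confidence interval of -0.19 to 0.21. Its values in TFH and naive libraries spanned the same range.

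The BH3-only genes split. Pmaip1, which encodes NOXA, a protein that binds mainly MCL1, had the largest rise of the 10. It was at 10.40 and 10.83 in TFH KO and at 10.60 and 10.86 in TFH WT libraries. It was at 7.84 and 8.49 in naive KO and at 8.20 and 7.51 in naive WT libraries. The lowest TFH library was thus far above the highest naive library, although the naive libraries of a group were up to 0.70 apart, the widest replicate gap of any member. Pmaip1 rose 6.34-fold over both genotypes, a log2 difference of 2.66 ± 0.21 (adjusted p = 4e-05, limma). It rose by 2.45 ± 0.29 in KO (adjusted p = 0.00105) and by 2.87 ± 0.29 in WT (adjusted p = 0.000367), and 0.555% of all genes had a larger rise over both genotypes.

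Bbc3, which encodes PUMA, a BH3-only protein able to bind every survival protein of the family, was at 10.28 and 10.18 in TFH KO and at 9.68 and 10.10 in TFH WT libraries. It was at 9.34 and 9.14 in naive KO and at 9.41 and 9.70 in naive WT libraries. TFH and naive libraries were apart in KO but overlapped in WT, where the lower TFH library stood just under the higher naive library. Bbc3 rose by 0.66 ± 0.12 over both genotypes (adjusted p = 0.00117, limma) and by 0.99 ± 0.17 in KO (adjusted p = 0.00204). In WT its difference was 0.34 ± 0.17 (adjusted p = 0.172), which was not called. The interaction of genotype and cell label was 0.65 ± 0.24 for Bbc3 (adjusted p = 0.997), so KO and WT were not shown to differ in this change.

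Bmf, which encodes a BH3-only protein tied to the cytoskeleton, had the largest fall of the 10. It was at 7.22 and 7.66 in TFH KO and at 6.89 and 6.86 in TFH WT libraries. It was at 9.05 and 9.05 in naive KO and at 9.22 and 9.21 in naive WT libraries. The replicates of 3 groups were nearly the same, while the TFH KO libraries were 0.44 apart. Bmf was 3.93-fold lower in TFH libraries over both genotypes, with a log2 difference of -1.97 ± 0.13 (adjusted p = 8.88e-07, limma). The difference was -1.61 ± 0.19 in KO (adjusted p = 0.000171) and -2.34 ± 0.19 in WT (adjusted p = 9.04e-06). CD8 T and NK cell markers and myeloid markers were also lower in TFH libraries, as given above, and their part in this fall was not tested.

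Bcl2l11, which encodes BIM, was at 10.94 and 10.93 in TFH KO and at 10.78 and 10.77 in TFH WT libraries. It was at 11.46 and 11.05 in naive KO and at 11.20 and 11.23 in naive WT libraries. All TFH libraries were below all naive libraries, and the naive KO libraries were the ones that differed most from each other. Bcl2l11 was 1.3-fold lower in TFH libraries over both genotypes, with a log2 difference of -0.38 ± 0.09 (adjusted p = 0.00645, limma). The WT difference was called at -0.44 ± 0.13 (adjusted p = 0.0254), and the KO difference of -0.32 ± 0.13 was not (adjusted p = 0.109). One library decided the KO value: it was called without naive KO replicate 2 (-0.52, adjusted p = 0.0167) and was -0.11 without naive KO replicate 1 (adjusted p = 0.602). The WT call held in 9 of 16 alternatives. It ended in each fit that left out 1 of the 4 WT libraries, where the difference stayed between -0.46 and -0.42, without the trend (adjusted p = 0.0674), with T cell identity scaling (adjusted p = 0.0874) and without replicate 2 of TFH KO and of TFH WT (adjusted p = 0.132). The call over both genotypes ended (-0.37, adjusted p = 0.0528) in the fit that leaves out replicate 2 of TFH KO and of TFH WT, which carry the higher B cell marker sums of their groups, and with libraries scaled on T cell identity genes (-0.30, adjusted p = 0.054).

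Bid, whose protein is cut by caspase 8 and then carries death receptor signals to mitochondria, was not called. It lay between 10.56 and 10.70 in the TFH libraries and between 10.21 and 10.67 in the naive libraries, with a difference of 0.19 ± 0.09 over both genotypes (adjusted p = 0.121, limma). In WT both TFH libraries were above both naive libraries, at 0.34 ± 0.12 (adjusted p = 0.0663). Bid overlaps Bcl2l13 on the opposite strand in the annotation, and reads of the overlap may have been counted for either.

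The effectors Bax and Bak1, whose proteins open the outer mitochondrial membrane, did not pass the test in any comparison. Bax lay between 12.23 and 12.40 in TFH libraries and between 11.99 and 12.37 in naive libraries, a difference of 0.09 ± 0.09 with a 95% confidence interval of -0.10 to 0.29. Bak1 lay between 11.50 and 11.81 in TFH libraries and between 11.32 and 11.69 in naive libraries, a difference of 0.13 ± 0.09 with an interval of -0.06 to 0.32. Both intervals leave out a change of the size seen for Bcl2 or Mcl1. Bax and Bak1 each overlap another gene in the annotation, Gm45808 and Ggnbp1.

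**Figure D2:**
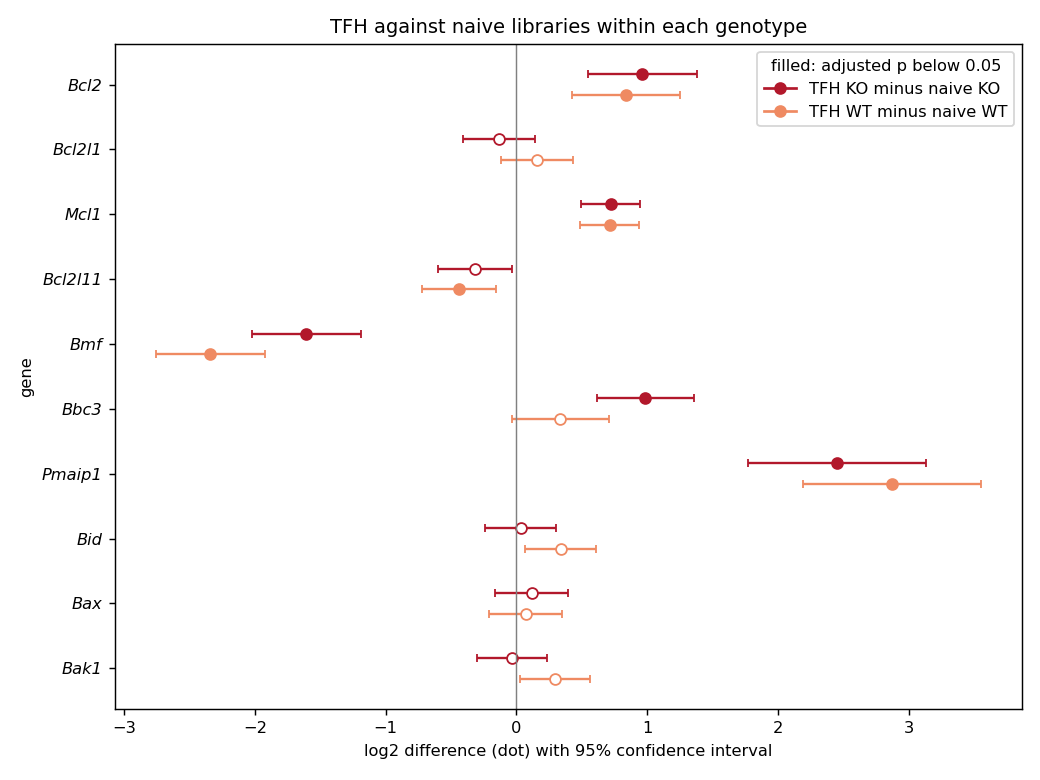
Log2 difference (x axis) of TFH KO minus naive KO (dark red, upper) and TFH WT minus naive WT (orange, lower) libraries for each gene (rows), with 95% confidence intervals that are not adjusted for the number of genes; filled dots were called. Pmaip1 is at 2.45 in KO and 2.87 in WT and Bmf at -1.61 in KO and -2.34 in WT, while the intervals of Bcl2l1 and Bax include 0 in both genotypes.

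Counted within each genotype, the family gave 5 calls in each. In KO 4 of 10 members rose (Bcl2, Mcl1, Bbc3 and Pmaip1), where 9.12% of all genes did, and Bmf fell, where 10.4% did. In WT 3 of 10 rose (Bcl2, Mcl1 and Pmaip1), where 12.6% did, and Bmf and Bcl2l11 fell, where 13.7% did. The WT count was 3 without naive WT replicate 1 or without TFH WT replicate 1. In either direction 19.5% of all genes were called in KO and 26.3% in WT. The KO and WT comparisons share no library, but both use the spread of each gene pooled over all 8 libraries in 1 fit. Their p-values are therefore not independent.

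Changes of BH3-only and survival genes were also set against each other within each library, where gene length cancels from the difference between groups. The log2 ratio of Pmaip1 to Mcl1 was higher in TFH than in naive libraries by 1.95 on average. The ratio of Bcl2l11 to Bcl2 moved the other way, with a difference of -1.28, as did that of Bmf to Bcl2, at -2.87. For these 3 ratios the 4 TFH and 4 naive libraries did not overlap. For all 3 this was fixed in advance. The genes of the ratios of Bcl2l11 and Bmf to Bcl2 were already apart in opposite directions. For Pmaip1 to Mcl1, the gap of Pmaip1 between TFH and naive libraries, 1.92, was larger than the whole range of Mcl1, 0.95. The ratio of Bbc3 to Bcl2 differed by -0.24 and that of Mcl1 to Bcl2 by -0.18, both with overlapping libraries. That of Bcl2 to Bax was higher by 0.81 and that of Bcl2 to Bcl2l1 by 0.89, both with no overlap. Since the members were known to differ before these ratios were formed, they are given without a test. Thus NOXA transcript rose by more than that of its main partner, while BIM and BMF transcripts fell as Bcl2 rose.

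Genes whose profile over the 8 libraries lay closest to each called member were found by the root mean square difference of log2 values, each gene centred on its own mean. The closest profile to Pmaip1 was that of Mir22hg at 0.10, followed by Ccrl2 at 0.13. Mcl1 was closest to Lzts3 at 0.03 and Arf4 at 0.04, and the profile of Zdhhc9 was at 0.05 from that of Bcl2l11. Bcl2 was closest to Cntf at 0.15 and Gins3 at 0.18, and Bbc3 to Erp27 at 0.11 and Pde4b at 0.12. Bmf was closest to Klrb1c and Kctd21, both at 0.21. Klrb1c is an NK cell receptor gene from the CD8 T and NK cell marker list, and it differed by -1.94 ± 0.09 over both genotypes.

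The rest of the apoptosis machinery was read from 7 lists of genes, and the counts that follow are for TFH against naive libraries over both genotypes, where 18.3% of all genes rose and 19.8% fell. Several lists had counts near those shares. Of 10 measured other BCL2 family genes, 1 rose, 1 fell and 8 were not called, with a median of -0.19 against 0.00 over all genes. Bcl2a1d, one of several near-identical copies of the survival gene A1, rose by 0.77 ± 0.22 (adjusted p = 0.0182, limma), and its reads may be shared with the copies. Its copy Bcl2a1b was at 0.48 ± 0.18 (adjusted p = 0.0777). The BH3-only gene Bik differed by -0.71 ± 0.17 (adjusted p = 0.00599).

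Of 12 apoptosome and caspase genes, 3 rose and 4 fell. Genes of the initiator caspases Casp9, Casp2 and Casp8 fell, with Casp9 at -0.57 ± 0.09 (adjusted p = 0.000399, limma), Casp2 at -0.40 ± 0.07 and Casp8 at -0.34 ± 0.07. Casp6 also fell, at -0.43 ± 0.09. Of 7 inhibitors of apoptosis and their antagonists 2 rose, Birc5 by 1.34 ± 0.24 and Birc2 by 0.30 ± 0.07. Birc5 encodes survivin, which also acts in cell division, and 6 of 8 proliferation genes rose in the same comparison.

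Of 11 death receptor genes 1 rose and 3 fell. The tumour necrosis factor receptor gene Tnfrsf1a differed by -0.68 ± 0.07, the adaptor gene Fadd by -0.64 ± 0.10 and the ligand gene Tnfsf10, which encodes TRAIL, by -0.32 ± 0.08. Its receptor gene Tnfrsf10b rose by 0.55 ± 0.13. Of 13 p53 genes, which include upstream inputs to Bbc3 and Pmaip1, 2 rose and 2 fell. The cell cycle inhibitor gene Cdkn1a rose by 2.19 ± 0.30 and Mdm2, which encodes the ligase that degrades p53, by 0.24 ± 0.07. Trp53 itself, at -0.47 ± 0.07, and Sesn1, at -0.38 ± 0.08, fell, and 9 of the 13 were not called. The list's median was 0.02.

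Of 15 FOXO and cytokine input genes 4 rose and 4 fell. The survival kinase gene Pim1 rose by 2.21 ± 0.08 (adjusted p = 7.11e-09, limma) and the interleukin 4 receptor gene Il4ra 2.3-fold. The interleukin 7 receptor gene Il7r, at -1.28 ± 0.11, and the interleukin 2 receptor gene Il2ra, at -0.51 ± 0.07, fell. Bcl2 transcript was thus higher in the libraries in which the receptor for interleukin 7 was lower. Of 6 genes listed under MCL1 turnover 3 rose and 2 fell. The largest rise, 3.57 ± 0.14, was that of Trib1, which encodes an adaptor of the ubiquitin ligase COP1 and is not an established regulator of MCL1. Among the others, the kinase gene Gsk3b rose by 0.53 ± 0.10 and the ligase gene Fbxw7 by 0.53 ± 0.10, and the deubiquitinase gene Usp9x differed by -0.52 ± 0.11.

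**Figure D3:**
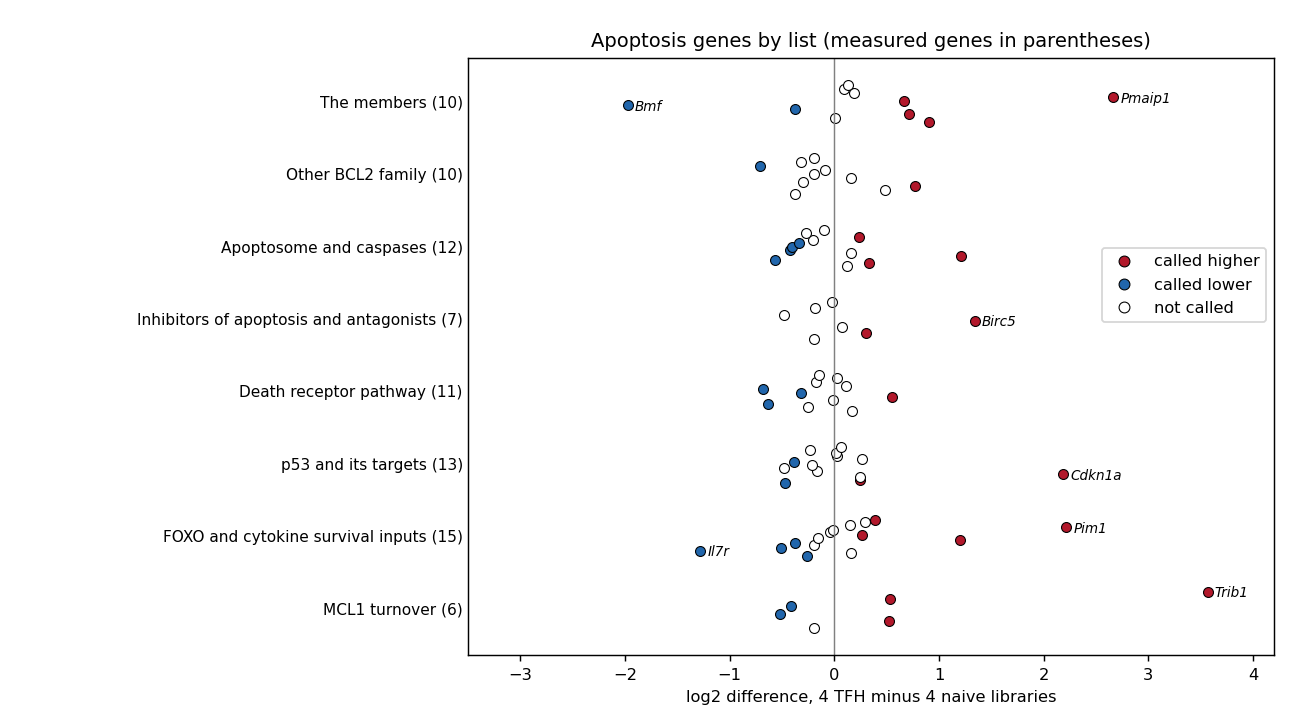
Log2 difference of the 4 TFH minus the 4 naive libraries (x axis) for each measured gene (dots) of the 10 members and of the 7 apoptosis lists (rows, with the number measured); red dots were called higher, blue dots lower and white dots were not called, and some of the genes farthest from 0 are named. Each list holds called genes next to genes that were not called, and the largest rise shown is that of Trib1 at 3.57.

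KO was compared with WT within each cell label to ask whether loss of C5aR1 changed these genes. No member was called by limma in either label. Among TFH libraries 0 of 10 members were called, where 0% of all genes were, and at an unadjusted p below 0.05 there was 1 member, Bmf, where 3.6% of all genes passed. Bmf was at 7.22 and 7.66 in TFH KO and at 6.89 and 6.86 in TFH WT libraries, a difference of 0.57 ± 0.19 (adjusted p = 1). The higher of the TFH KO values belonged to TFH KO replicate 2, the library with the highest B cell marker sum. The difference was 0.35 without that library, 0.79 without TFH KO replicate 1, and 0.52 ± 0.17 once the level of B cell markers entered the fit. CD8 T and NK cell markers were also higher in TFH KO, with a median difference of 0.61 over the 12 genes, of which none was called. The 10 TFH markers had a median difference of -0.46 and the 8 proliferation genes of -0.50, again with none called. Sums of the TFH markers were 14.76 to 15.04 in TFH KO and 15.22 to 15.43 in TFH WT libraries. The part of these lists in the Bmf difference, or in those of other members, was not tested. The stress genes Hspa1a and Hspa1b were lower in KO in both labels, as given above. Whether handling or batch differed between KO and WT libraries, and its part in these comparisons, was not tested. Bbc3 differed by 0.34 ± 0.17 with a 95% confidence interval of -0.03 to 0.71, and Bcl2 by -0.31 ± 0.19 with an interval of -0.72 to 0.11. Single libraries moved both values. Bbc3 was at 0.13 without TFH WT replicate 1 and at 0.55 without TFH WT replicate 2. Bcl2 was at -0.08 without TFH KO replicate 2 and at -0.54 without TFH KO replicate 1.

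The other 7 members had differences between TFH KO and TFH WT of -0.20, for Bak1, to 0.16, for Bcl2l11. The intervals bound what these libraries could show: that of Mcl1 was -0.31 to 0.14, that of Bcl2l1 -0.33 to 0.22, that of Bax -0.32 to 0.24 and that of Pmaip1 -0.79 to 0.57. A p that misses the threshold does not show that KO and WT were alike.

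Among naive libraries 0 of 10 members were called, where 0.0712% of all genes were, and 1 member, Bcl2, had an unadjusted p below 0.05, where 2.53% of all genes did. Bcl2 was at 9.31 and 9.12 in naive KO and at 9.43 and 9.86 in naive WT libraries, a difference of -0.43 ± 0.19 (adjusted p = 0.9998, limma). The difference was -0.22 without naive WT replicate 2 and -0.65 without naive WT replicate 1. Bcl2 was thus lower in KO in both labels without passing the test in either. Pmaip1 differed by 0.31 ± 0.29, Bbc3 by -0.31 ± 0.17 and Bid by 0.26 ± 0.12, and the other members by -0.17 to 0.23.

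**Figure D4:**
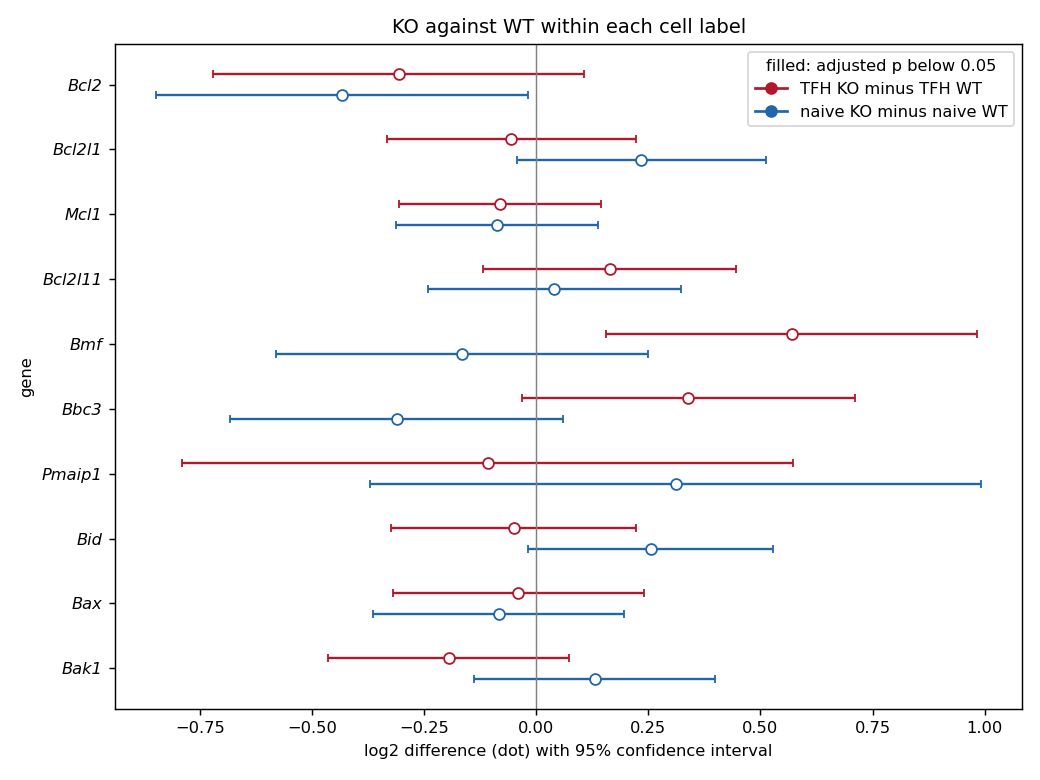
Log2 difference (x axis) of TFH KO minus TFH WT (red, upper) and naive KO minus naive WT (blue, lower) libraries for each gene (rows), with 95% confidence intervals that are not adjusted for the number of genes; open dots were not called. No dot is filled, and the intervals that leave out 0 are those of Bmf in TFH libraries, at 0.57, and of Bcl2 in naive libraries, at -0.43.

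The interaction of genotype and cell label called no member, where 0.0142% of all genes were called, and 2 members had an unadjusted p below 0.05, where 4.37% of all genes did. These were Bmf, at 0.74 ± 0.27, and Bbc3, at 0.65 ± 0.24 (adjusted p = 0.997 for both, limma). The median interaction was 0.83 for the 12 CD8 T and NK cell markers and 0.99 for the 15 myeloid markers. It was -0.61 for the 10 TFH markers and -0.81 for the 8 proliferation genes. The part of these lists in the values of Bmf and Bbc3 was not tested. Group means of Bmf and Bbc3 were higher in KO than in WT among TFH and lower among naive libraries. Both genes were picked by their interaction p from these same libraries, so this pattern is no separate support for an interaction. The interaction shares its libraries with the comparisons above.

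Bbc3 differs from the other members in where it lies: chromosome 7, position 16308393 to 16318205 on GRCm38, 48.9 kb from C5ar1, the deleted gene. Bax, also on chromosome 7, is 29.2 Mb from it. C5ar1 itself was not among the measured genes within 1 Mb of Bbc3, so its own transcript could not be compared. Of 24 measured genes within 1 Mb of Bbc3, 2 were called between naive KO and naive WT, where 0.0712% of all genes were. Between TFH KO and TFH WT 0 were called, where 0% of all genes were. At an unadjusted limma p below 0.05 there were 5 in naive libraries, where 2.53% of all genes passed, and 3 in TFH libraries, where 3.6% did. Sae1, a subunit gene of the SUMO-activating enzyme that lies 2 kb from Bbc3, rose by 0.74 ± 0.09 in naive KO (adjusted p = 0.00904, limma) and was at 0.03 ± 0.09 in TFH libraries. The amino acid transporter gene Slc1a5, at 463.1 kb, fell in naive KO, with -2.38 ± 0.10, and was at -0.62 ± 0.10 in TFH libraries. Dhx34, a helicase gene on the other side of Bbc3, was at 0.65 ± 0.12 in TFH and 0.52 ± 0.12 in naive libraries and was called in neither. Bbc3 itself was at -0.31 in naive and 0.34 in TFH libraries, and was called in neither. Whether genotype-linked sequence around the deleted gene bears on Bbc3 was not tested.

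**Figure D5:**
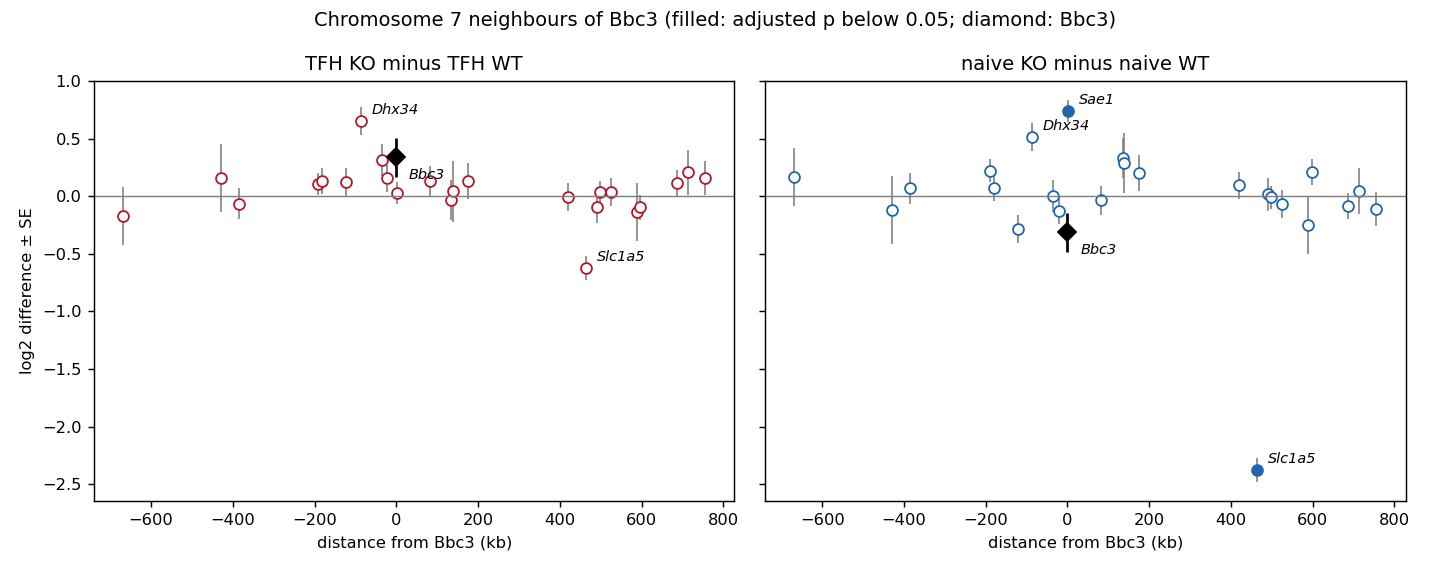
Log2 difference ± SE (y axis) of TFH KO minus TFH WT (left) and naive KO minus naive WT (right) libraries for 24 measured chromosome 7 genes against their distance from Bbc3 in kb (x axis, 0 where Bbc3 lies); filled dots were called and the diamond is Bbc3. Sae1 at 0.74 and Slc1a5 at -2.38 were called in naive libraries, and Bbc3 was called in neither panel.

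Replicate spread of the members was like that of other genes. Between replicates of one group the median gap was 0.14 in TFH KO, 0.14 in TFH WT, 0.19 in naive KO and 0.14 in naive WT for the members, against 0.16, 0.14, 0.16 and 0.15 in the same groups over all genes. The 5 calls other than Bcl2l11 over both genotypes, those of Bcl2, Mcl1, Bmf, Bbc3 and Pmaip1, held in all 15 alternatives run for that comparison, including the B cell level as a covariate and the fit without replicate 2 of both TFH groups. The highest adjusted p among those alternatives was 0.00383 for Bcl2, 0.000887 for Mcl1, 5.25e-05 for Bmf, 0.0129 for Bbc3 and 0.00111 for Pmaip1. The rise of immediate early and stress genes moves with the same contrast as these calls, and its part in them was not tested.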

How the data were processed

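Per the labels' protocols, RNA of 8 sorted CD4 cell samples was read from one end over 51 bp. BWA and build mm10 are named in the submitters' processing notes. Counter, annotation, filter, strand setting and normalization are not stated there. In the deposited tables the authors give a log2 value for each of 14042 genes per library, from 1.16 to 19.48. Sorted values of the libraries, above the lowest percentile, differ from their median by at most 0.03, as quantile normalization would leave them; such a step, which removes differences in overall spread, is not recorded in the sources. Depth is unknown and no counting interval can be given.

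The values were fitted as deposited with limma 3.58.1 (R 4.3.3), in 1 model of 8 libraries with a mean per group, 4 residual degrees of freedom, and a trended, robust moderation of the spread. Benjamini-Hochberg adjustment ran across the 14042 genes. Read counts had been allowed for in the design, but the files hold log2 values. With 2 libraries a side the smallest two-sided p of an exact permutation test is 0.333. Replicate numbers are in accession order and do not pair libraries.

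The members and lists were chosen with earlier results of these data known. In each list the up to 4 called genes of smallest p over both genotypes are named, except for a few that are not reported here, and other genes of a list, Casp6, Bcl2a1b and Pdcd1, were added after their values were seen. Positions are from GENCODE vM21 (GRCm38) and promoter sequences from RefSeq (GRCm38.p6). Alternatives were other fit settings, each library left out, replicate 2 of both TFH groups left out, a B cell covariate, a filter on low values, a pseudocount of 64 and scaling on T cell identity genes.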

Additional observations from a re-analysis of the deposited data

How the results depend on the processing

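Calls of Mcl1, Bmf and Pmaip1 held in all 16 alternatives within each genotype, as did those of Bcl2 and Bbc3 in KO, and no member was called between KO and WT or for the interaction under any alternative run. Without replicate 2 of both TFH groups, 2104 genes were called for TFH WT against naive WT, 1225 for TFH KO against naive KO, and uncalled differences turned to 0.19 for Bcl2l1 (TFH KO against TFH WT), -0.0037 for Bid (TFH KO against naive KO) and -0.0543 for Mcl1 (interaction). With the compared groups alone, 1 gene was called for TFH KO against TFH WT. The interaction called 0 genes without the trend and 1 with T cell identity scaling. That scaling shifted the median of all genes by 0.11 for TFH KO against naive KO and turned Bax (TFH KO against TFH WT) to 0.0097 and Bak1 (TFH KO against naive KO) to 0.0804. The cause of these changes was not tested.

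With each library left out, the called genes numbered 0 to 2 for TFH KO against TFH WT, 7 to 17 for naive KO against naive WT, 1991 to 3726 for TFH WT against naive WT, 1399 to 2683 for TFH KO against naive KO and 1 to 7 for the interaction, and the members called for TFH WT against naive WT numbered 3 to 5. A group left with 1 library was assumed to vary like the others. Uncalled differences that changed sign spanned, for TFH KO against TFH WT, -0.19 to 0.0765 (Bcl2l1), -0.32 to 0.11 (Pmaip1), -0.11 to 0.0318 (Bax) and -0.11 to 0.0108 (Bid). For naive KO against naive WT they spanned -0.17 to 0.25 (Bcl2l11), -0.0374 to 0.66 (Pmaip1), -0.27 to 0.11 (Bax) and -0.0146 to 0.28 (Bak1), and for TFH KO against naive KO -0.0751 to 0.31 (Bax), -0.13 to 0.062 (Bak1) and -0.0821 to 0.15 (Bid). Over both genotypes they spanned -0.0559 to 0.0761 (Bcl2l1) and -0.0016 to 0.19 (Bax), and for the interaction -0.10 to 0.36 (Bcl2), -0.0723 to 0.0872 (Mcl1), -0.082 to 0.33 (Bcl2l11) and -0.15 to 0.23 (Bax).

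No paired analysis was possible because replicate numbers only name libraries and the labels pair none. The fit of the compared groups alone was not run for the comparisons that use all 4 groups.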
